A study of Mus musculus with 12 samples.

Results

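The 10 genes described here encode the core of the circadian clock: the activators Arntl, Clock and Npas2, the repressors Per1, Per2, Per3, Cry1, Cry2 and Ciart, and the PER kinase Csnk1d. They were found by symbol among the 23849 gene symbols of the expression table, and all 10 were in it. The data were liver RNA-seq of 12 male C57BL/6J mice, 8 weeks old at the start, all kept on a high-fat diet (HFD) for 6 weeks in a cycle of 12 h of light and 12 h of dark. For the last 2 weeks each mouse received, by gavage at ZT11, either vehicle (drinking water; the groups labelled Cntrl) or Libramed, a blend of gel-forming fibers called Policaptil Gel Retard in the methods. Livers were taken at ZT0, when the lights came on, or at ZT12, when they went off, giving 4 groups of 3 mice: vehicle ZT0, vehicle ZT12, Libramed ZT0 and Libramed ZT12. All 4 groups shared the HFD, so no diet comparison was made, and 2 time points do not give the phase or amplitude of a rhythm. Values are FPKM, a read level scaled to the length of the transcript and the size of the library, so levels of different genes can be set side by side per length.

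In the clock of mammals, the protein of Arntl (BMAL1) pairs with CLOCK or NPAS2 and binds E-boxes in DNA, which turns on the Per and Cry genes, Ciart and many output genes. PER and CRY proteins gather, enter the nucleus and inhibit that pair, and the CK1 kinases time the cycle by phosphorylating PER proteins. A side loop through REV-ERB repressors acts on Arntl through RRE elements, and PAR-bZIP factors such as DBP act through D-boxes. In liver this clock times the genes of glucose, lipid and bile acid metabolism, and feeding is a strong cue for it.

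Promoter stretches of the members that hold such elements are shown because the 3 kinds of element belong to the 3 arms of the loop whose transcripts are measured below. RefSeq promoter windows on GRCm38.p6, from 250 bases before to 50 after the transcription start, were found for 8 of the 10 members, as 12 windows. Both strands were searched for the E-box CACGTG, the E'-box CACGTT, the D-box TTATGTAA and the RRE cores TAGGTCA and TGGGTCA, and 6 of the 8 members held a match. No 2 matches overlapped. The stretches are written 5′ to 3′ on the strand of the gene, with the matches in capitals, and an E'-box on the opposite strand reads AACGTG. Ciart (chr3:95882256-95882355, minus strand) held 3 E-boxes at -116, -58 and -44 from the start. Cry1 (chr10:85185098-85185144, minus strand) held an E'-box at -79 and an E-box at -60. Cry2 (chr2:92434219-92434246, minus strand) held an E'-box at -166, and Per1 (chr11:69098772-69098799, plus strand) an E-box at -166. Per3 (chr4:151044805-151044881, minus strand) held 2 D-boxes at -205 and -158. Arntl (chr7:113207530-113207558, plus strand) held an RRE core at 31 bases after the start, inside an exon of the gene in the GENCODE annotation.
Ciart: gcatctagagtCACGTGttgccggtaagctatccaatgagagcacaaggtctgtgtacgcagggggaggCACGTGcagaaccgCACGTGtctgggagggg
Cry1: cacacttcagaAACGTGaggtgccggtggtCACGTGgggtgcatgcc
Cry2: cacatggtgggAACGTGagggggcggag
Per1: gcacccaagtcCACGTGcagggatgtgt
Per3: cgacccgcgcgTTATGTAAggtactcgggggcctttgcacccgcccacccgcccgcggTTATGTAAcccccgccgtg
Arntl: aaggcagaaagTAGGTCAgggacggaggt

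Among the 32851 windows of the RefSeq table, 7.15% held CACGTG, 4.68% CACGTT, 0.938% TTATGTAA, 2.61% TAGGTCA and 3.98% TGGGTCA. The matches are a description of these letters in these windows, and binding was not measured. The windows of Clock and Npas2 held none of the 5 motifs. For Arntl and Per1 the match was in 1 of the 2 windows, and the other window held none. The shares above are per window and per motif, so they cannot be set directly beside the count of members with a match.

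**Figure D1:**
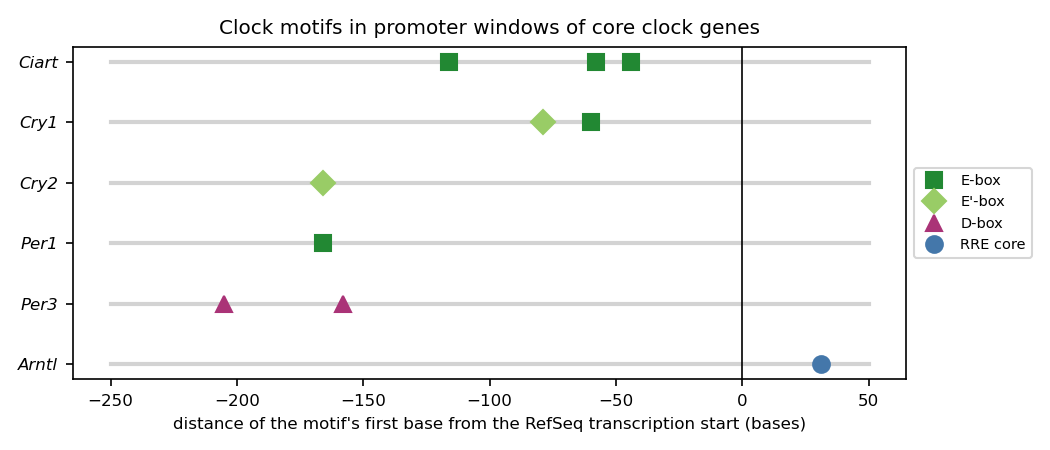
Position of each motif match (first base, in bases from the RefSeq transcription start at 0) in the promoter windows of 6 core clock genes, with the searched window drawn as a grey line. The 3 E-boxes of Ciart lie between -116 and -44, and the only match after the start is the RRE core of Arntl at 31.

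The libraries were liver by their markers, with 1 library apart. Summed FPKM ran from 634684 (Libramed ZT0 replicate 2) to 759355 (Libramed ZT12 replicate 1), and the 3 Libramed ZT12 libraries had the highest sums. The summed level of 7 hepatocyte genes was 35872 to 50081 FPKM, and relative depth, read from the smallest steps of the values, ran from 0.708 (Libramed ZT12 replicate 2) to 1.26 (vehicle ZT12 replicate 2) times that of vehicle ZT0 replicate 1. Depth in reads is unknown. Libramed ZT12 replicate 3 held the 3 skeletal muscle genes Ckm, Acta1 and Myh4 at 10.4, 16.4 and 4.55 FPKM, which were at 0 in the other libraries apart from Myh4 at 0.01 FPKM in Libramed ZT0 replicate 1, so the counts and the calls it touches are also given without it. The summed level of 4 endothelial genes was lower at ZT12 (11.9 to 20.3 FPKM in both treatments) than at ZT0 (22.6 to 37.8 FPKM), and that of 4 stellate genes was 3.86 to 5.42 FPKM at ZT12 against 5.35 to 12.4 FPKM at ZT0, with no overlap within a treatment. The 4 fat genes summed to 0.35 to 42.8 FPKM, nearly all of it Cfd, and Adipoq, Plin1 and Lep were at or under 0.05 FPKM. At ZT12 this sum was 11.5 to 42.8 FPKM in vehicle and 2.74 to 11.2 FPKM in Libramed mice, and at ZT0 the treatments overlapped. For 6 Kupffer cell and macrophage genes the sum at ZT0 was 26.0 to 32.2 FPKM in vehicle and 13.7 to 25.5 FPKM in Libramed mice. At ZT12 the treatments overlapped. The part of these cells in the time and treatment differences was not tested. In bulk liver fewer cells of a type cannot be told apart from less RNA per cell.

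Over the day, the 3 activators were high at ZT0 and low at ZT12, the 3 PER genes and Ciart were the reverse, Cry1 and Cry2 were higher at ZT12 with a change that passed in Libramed but not in vehicle mice, and Csnk1d passed in neither treatment. By limma on log2(FPKM + 1), with Benjamini-Hochberg adjustment over 9806 genes of at least 1 FPKM on average and a threshold of 0.05, 4 members rose and 2 fell from ZT0 to ZT12 in vehicle mice, among 9 tested. Of all genes tested, 5.62% rose and 4.78% fell. In Libramed mice 6 members rose and 2 fell, where 7% of all genes rose and 5.36% fell. Averaged over both treatments in a fit of the 12 mice, 6 rose and 2 fell, against 15.9% and 14.1% of all genes. The members' median log2 change was 0.37 in vehicle and 0.84 in Libramed mice, and that of all genes 0.0078 and 0.013. Npas2 stayed under the minimum and was not among the 9, and Ciart passed it only through its ZT12 levels, so these counts describe the members that passed and carry no test. The smallest p that an exact permutation test of 3 against 3 mice can give is 0.1. Permuting the times within each treatment, or the treatments within each time, can reach 0.005.

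Arntl (chr7:113207465-113314126), whose protein BMAL1 is the partner both CLOCK and NPAS2 need, fell from ZT0 to ZT12 in both treatments. In vehicle mice it was measured at 4.95, 7.18 and 9.99 FPKM at ZT0 and at 1.09, 2.02 and 1.77 FPKM at ZT12. In Libramed mice the values were 4.98, 5.80 and 5.72 FPKM at ZT0 and 2.44, 1.18 and 1.19 FPKM at ZT12. All 6 ZT0 mice were above all 6 ZT12 mice, and the mean level at ZT12 was 0.221 times the ZT0 mean in vehicle and 0.292 times in Libramed mice. The log2 change was -1.65 ± 0.24 (SE; limma adjusted p = 0.0117) in vehicle and -1.35 ± 0.18 (adjusted p = 0.00663) in Libramed mice. With no minimum level the vehicle change just missed the threshold (limma adjusted p = 0.0529). Over both treatments the change was -1.50 with an exact permutation p of 0.005, the smallest possible.

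Clock (chr5:76209868-76304792), whose protein pairs with BMAL1, fell too, by less than Arntl. Vehicle mice had 3.01, 3.97 and 3.52 FPKM at ZT0 and 1.82, 2.06 and 2.35 FPKM at ZT12. Libramed mice had 3.06, 3.12 and 2.65 FPKM at ZT0 and 1.49, 1.89 and 1.84 FPKM at ZT12. The times did not overlap in either treatment. The log2 change was -0.55 ± 0.11 (SE; limma adjusted p = 0.0311) in vehicle and -0.53 ± 0.099 (adjusted p = 0.0184) in Libramed mice, and the ZT12 mean was 0.593 and 0.591 times the ZT0 mean. The call was less firm than that of Arntl: leaving out any single vehicle library other than vehicle ZT0 replicate 1 raised the adjusted p to between 0.0622 and 0.107, the latter for vehicle ZT12 replicate 2, and the call in Libramed mice was lost without Libramed ZT0 replicate 1 (0.0624) or replicate 2 (0.0634). With all mice kept, the call was also lost by Cyber-T, the kind of test the study used (adjusted p = 0.157 in vehicle and 0.0671 in Libramed mice). The same held for limma with a replicate block, where replicate number is added to the fit (0.0639 and 0.0558). It held too with no minimum level (0.0818 and 0.0542). Over both treatments the change of -0.54 passed (limma adjusted p = 0.000412).

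Npas2 (chr1:39193731-39363236), a paralog of Clock that can take its place beside BMAL1, was the lowest activator and was close to 0 at ZT12. Vehicle mice had 0.406, 0.780 and 1.73 FPKM at ZT0, and 0, 0.0208 and 0 FPKM at ZT12. Libramed mice had 0.643, 0.743 and 0.532 FPKM at ZT0, and 0.0132, 0 and 0.0258 FPKM at ZT12. Every ZT0 mouse was above every ZT12 mouse, and no fold is given against values listed at 0. With no minimum level, limma gave a log2 change of -0.91 (adjusted p = 0.132) in vehicle, -0.69 (adjusted p = 0.0136) in Libramed mice and -0.80 (adjusted p = 0.00243) over both.

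Per1 (chr11:69095217-69109960), a PER repressor known also to respond quickly to glucocorticoid and cAMP signals, rose from ZT0 to ZT12. In vehicle mice it was at 2.86, 4.56 and 3.34 FPKM at ZT0 and at 9.91, 8.05 and 15.9 FPKM at ZT12. In Libramed mice it was at 1.58, 2.20 and 3.37 FPKM at ZT0 and at 16.2, 15.4 and 17.3 FPKM at ZT12. The times did not overlap, and at ZT12 the lowest Libramed mouse lay just below the highest vehicle mouse. The mean rose 3.15-fold in vehicle mice (log2 change 1.39 ± 0.25 SE; limma adjusted p = 0.0195) and 6.84-fold in Libramed mice (2.39 ± 0.18 SE; adjusted p = 0.00104). The vehicle call was lost without vehicle ZT0 replicate 3 (adjusted p = 0.0769) or vehicle ZT12 replicate 1 (0.0528). A replicate block (0.0614) or no minimum level (0.0751) ended it too.

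Per2 (chr1:91415982-91459324), the PER protein whose stability CK1 kinases tune, followed the same course. Vehicle mice had 3.46, 6.27 and 3.79 FPKM at ZT0 and 11.1, 15.2 and 16.7 FPKM at ZT12. Libramed mice had 4.26, 3.27 and 2.33 FPKM at ZT0 and 16.9, 17.5 and 22.0 FPKM at ZT12. At ZT12 all 3 Libramed mice were above all 3 vehicle mice, by a small margin. The mean rose 3.19-fold in vehicle (log2 change 1.50 ± 0.22 SE; limma adjusted p = 0.0119) and 5.72-fold in Libramed mice (2.22 ± 0.18 SE; adjusted p = 0.00125). The vehicle call was lost without vehicle ZT0 replicate 3 (adjusted p = 0.0556) or vehicle ZT12 replicate 2 (0.0575). Using no minimum level (0.0524) ended it too.

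Per3 (chr4:151003652-151044665), the PER paralog that the core loop needs least, rose by nearly the same factor in both treatments. Vehicle mice had 2.49, 1.38 and 0.657 FPKM at ZT0 and 8.18, 10.9 and 8.39 FPKM at ZT12. Libramed mice had 1.64, 2.05 and 1.83 FPKM at ZT0 and 13.7, 9.26 and 10.1 FPKM at ZT12. The ZT12 values of the treatments overlapped, and those of the times did not. The rise was 6.07-fold in vehicle (log2 change 2.07 ± 0.26 SE; limma adjusted p = 0.00803) and 5.98-fold in Libramed mice (2.07 ± 0.14 SE; adjusted p = 0.00096).

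Cry1 (chr10:85131700-85185064), the strongest repressor of the BMAL1 and CLOCK pair, and known to peak later than the PER genes, was higher at ZT12 in Libramed mice. Vehicle mice had 4.42, 5.85 and 7.17 FPKM at ZT0 and 4.85, 9.05 and 10.1 FPKM at ZT12, and these overlapped. Libramed mice had 5.49, 3.01 and 4.42 FPKM at ZT0 and 7.79, 8.82 and 8.44 FPKM at ZT12, which did not. The log2 difference was 0.37 ± 0.26 (SE; limma adjusted p = 0.422) in vehicle and 0.84 ± 0.17 (adjusted p = 0.0231) in Libramed mice. The Libramed call was lost without the library that held muscle genes (adjusted p = 0.0699), Libramed ZT12 replicate 2 (0.0792) or Libramed ZT0 replicate 3 (0.0628). A replicate block (0.0583) or no minimum level (0.0818) ended it too. Over both treatments the change was 0.61 (limma adjusted p = 0.0203; exact permutation p = 0.02), and without vehicle ZT12 replicate 2 it was 0.55 with an adjusted p of 0.051.

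Cry2 (chr2:92403646-92434043), the paralog of Cry1 with the weaker repression, stood at 10.4, 12.4 and 9.37 FPKM at ZT0 and 9.65, 14.3 and 13.2 FPKM at ZT12 in vehicle mice. Libramed mice had 11.1, 11.1 and 9.81 FPKM at ZT0 and 16.7, 13.0 and 14.4 FPKM at ZT12. The log2 difference was 0.18 ± 0.16 (SE; limma adjusted p = 0.519) in vehicle mice, whose times overlapped. In Libramed mice it was 0.42 ± 0.11 (adjusted p = 0.0467), a call that leaving out any single Libramed library ended (adjusted p between 0.0587 without Libramed ZT12 replicate 2 and 0.133 without Libramed ZT0 replicate 3). A fit of all 12 mice also ended it (0.0722), as did median-ratio scaling (0.0563) and quantile normalization (0.0661). So did a replicate block (0.0795), Cyber-T (0.159) and no minimum level (0.0972). Over both treatments the difference was 0.30 (limma adjusted p = 0.0436, exact permutation p = 0.03). It missed the threshold when any of 9 of the 12 libraries was left out, with an adjusted p of up to 0.104 (without vehicle ZT12 replicate 2). The same held with median-ratio scaling (0.0544), quantile normalization (0.0779), a replicate block (0.0602) or no minimum level (0.0747).

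Ciart (chr3:95878503-95882251), a repressor of the BMAL1 and CLOCK pair also known as CHRONO, had the largest log2(FPKM + 1) change of the members tested in both treatments. It was at 0.923, 0.544 and 0.0782 FPKM at ZT0 and at 12.3, 6.81 and 9.82 FPKM at ZT12 in vehicle mice. In Libramed mice it was at 0.478, 0.747 and 0.512 FPKM at ZT0 and at 11.6, 12.8 and 19.1 FPKM at ZT12. Every ZT12 mouse was far above every ZT0 mouse. The ratio of means was 18.8 in vehicle and 25.0 in Libramed mice, and the log2(FPKM + 1) change, which understates the rise of a gene this low, was 2.82 ± 0.26 (SE; limma adjusted p = 0.00347) and 3.27 ± 0.18 (adjusted p = 0.000463). Without the library that held muscle genes the Libramed change was 3.07 (adjusted p = 0.00141).

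Csnk1d (chr11:120961749-120991330), which encodes CK1δ, was close to level. Vehicle mice had 17.5, 20.3 and 18.6 FPKM at ZT0 and 16.5, 18.2 and 19.3 FPKM at ZT12. Libramed mice had 17.2, 16.2 and 18.0 FPKM at ZT0 and 18.6, 19.7 and 21.2 FPKM at ZT12. The vehicle times overlapped, with a log2 difference of -0.058 (95% interval -0.28 to 0.17; limma adjusted p = 0.744). The Libramed times did not, and the difference of 0.20 (95% interval 0.00052 to 0.40) missed the threshold (adjusted p = 0.170).

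**Figure D2:**
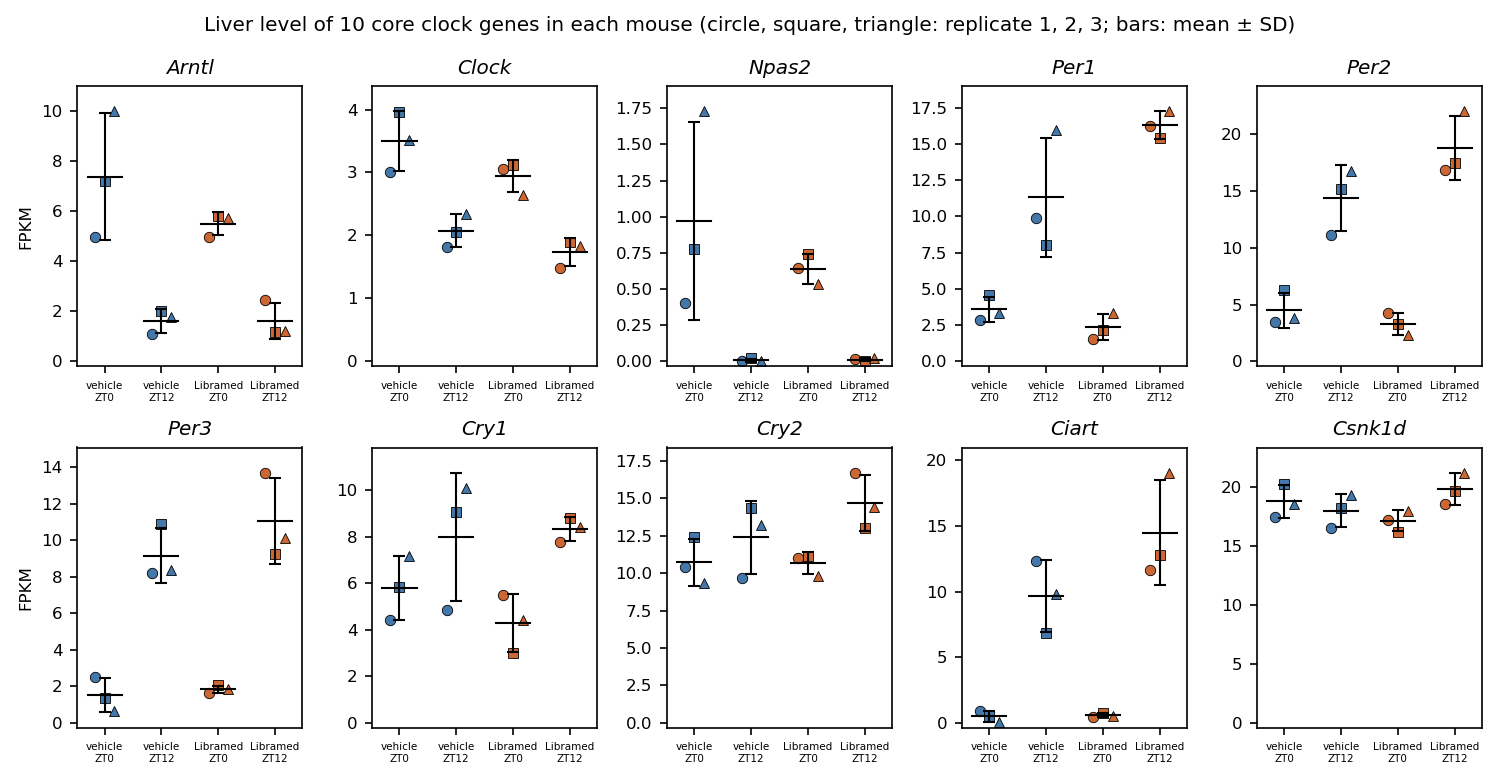
Level (FPKM, linear axis) of each core clock gene in each of the 12 mice; circles, squares and triangles are replicates 1, 2 and 3, and bars give the mean ± SD of 3 mice (blue, vehicle; orange, Libramed). Arntl, Clock and Npas2 are higher at ZT0, Per1, Per2, Per3 and Ciart at ZT12, and Csnk1d stays between 16.2 and 21.2 FPKM.

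Counted by overlap alone, the ZT0 and ZT12 values were apart in 7 of the 10 members in vehicle mice and in 10 of 10 in Libramed mice, where 33.2% and 34.9% of all genes tested were apart. The 3 that overlapped in vehicle mice were Cry1, Cry2 and Csnk1d. Npas2 was apart in both treatments but under the minimum, so it counts among the 10 members and not among the genes tested. Without the library that held muscle genes, 6 members passed the test in Libramed mice in place of 8, and the lost calls were those of Cry1 and Cry2. Without it the Libramed log2 change was -1.24 for Arntl (limma adjusted p = 0.026), -0.55 for Clock (0.0471), 2.35 for Per1 (0.00705), 2.11 for Per2 (0.00683) and 2.11 for Per3 (0.00521). The spreads at ZT12 and the correlations below include it.

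**Figure D3:**
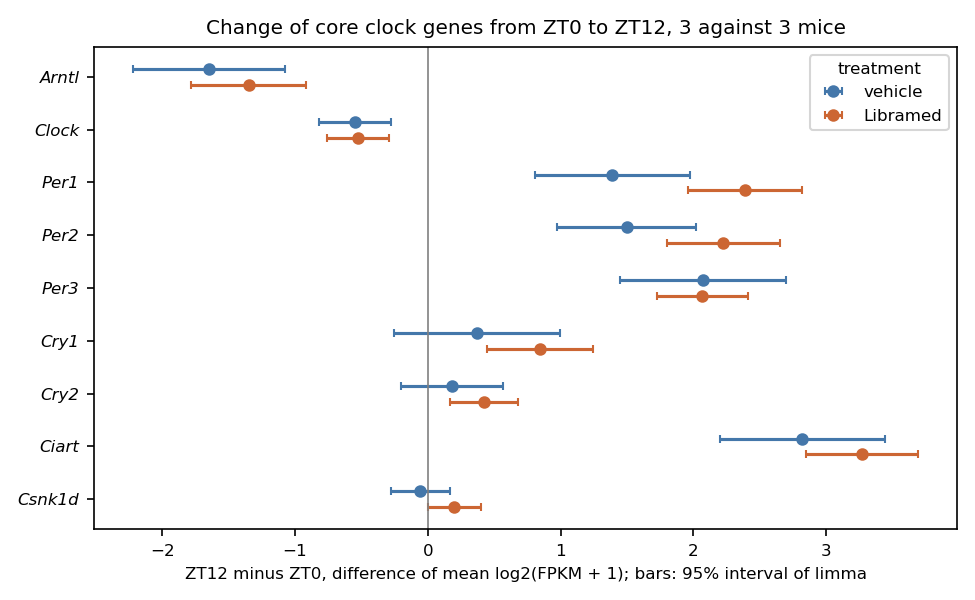
Difference between ZT12 and ZT0 in mean log2(FPKM + 1) for the 9 core clock genes tested, with the 95% interval of limma (3 against 3 mice; blue, vehicle; orange, Libramed). Arntl and Clock lie below 0, the PER genes and Ciart above it, and the Libramed points of Per1 and Per2 (2.39 and 2.22) lie to the right of the vehicle points (1.39 and 1.50).

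Set in order of level per length, Csnk1d had the highest mean in each of the 4 groups, from 17.1 ± 0.910 FPKM (SD, n = 3) at Libramed ZT0 to 19.8 ± 1.33 FPKM at Libramed ZT12. At ZT0 it was apart from Cry2, the next gene, in both treatments (10.7 ± 1.56 FPKM in vehicle and 10.7 ± 0.740 FPKM in Libramed mice). Below Cry2 came Arntl, with 7.37 ± 2.53 FPKM in vehicle and 5.50 ± 0.456 FPKM in Libramed mice, then Cry1 and Per2. From Arntl to Per2 neighbours in the order overlapped in both treatments. Per3, Npas2 and Ciart were the lowest, and Ciart was last at 0.515 ± 0.423 FPKM in vehicle and 0.579 ± 0.147 FPKM in Libramed mice.

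At ZT12 the order was another. Per2 stood next to Csnk1d, at 14.4 ± 2.90 FPKM (SD, n = 3) in vehicle and 18.8 ± 2.82 FPKM in Libramed mice, and overlapped with it in both. Ciart had moved to the fifth place, with 9.66 ± 2.77 FPKM in vehicle and 14.5 ± 4.0 FPKM in Libramed mice. Clock (2.08 ± 0.263 and 1.74 ± 0.220 FPKM) and Arntl (1.63 ± 0.484 and 1.61 ± 0.724 FPKM) overlapped with each other and were below every repressor. In vehicle mice each neighbouring pair from Csnk1d down to Cry1 overlapped, while in Libramed mice Per3 (11.03 ± 2.36 FPKM) and Cry1 (8.35 ± 0.520 FPKM) were apart.

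The change over time differed between treatments, at an unadjusted p, in Per1 and Per2. The rise of Per1 was larger in Libramed mice by 1.00 on the log2 scale (95% interval 0.27 to 1.73; limma p = 0.0118, adjusted p = 0.625), and the exact permutation p was 0.04. That of Per2 was larger by 0.73 (95% interval 0.048 to 1.41; limma p = 0.038, adjusted p = 0.725), with an exact permutation p of 0.065. These 2 of the 9 members tested passed the unadjusted threshold, as did 6.63% of all genes, and 0% of all genes passed after adjustment. The median difference was 0.29 over the members and 0.0047 over all genes. The exact permutation test of this difference permuted the treatments within each time. It thus asks whether treatment had no effect at either time, which is wider than equal change over time.

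The Libramed mean of Per1 was 0.664 times the vehicle mean at ZT0 and 1.44 times at ZT12. For Per2 these ratios were 0.729 and 1.31. The unadjusted p of Per1 stayed under 0.05 in 19 of 19 alternatives, from 0.00114 to 0.0317, and that of Per2 in 13 of 19, from 0.0164 to 0.0974. Without the library that held muscle genes the difference was 0.96 for Per1 and 0.61 for Per2. Of the members tested, only Per1 then had an unadjusted limma p under 0.05. Csnk1d gave an exact permutation p of 0.04 for its difference of 0.26 (95% interval -0.011 to 0.52), with a limma p of 0.0583 that was under 0.05 in 5 of 19 alternatives.

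For the other 6 members tested, the interval of the difference in change held 0. Per3 had the difference nearest to 0, at -0.0080 (95% interval -0.72 to 0.70), and Clock gave 0.021 (-0.31 to 0.35). Cry1, Ciart, Arntl and Cry2 gave 0.48 (-0.27 to 1.22), 0.45 (-0.31 to 1.21), 0.29 (-0.43 to 1.02) and 0.24 (-0.21 to 0.69). The intervals of Arntl, Cry1 and Ciart reached the difference seen in Per2, and those of Per3, Clock and Cry2 ended below it.

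The treatment comparisons used the same 12 mice as those over time. Within a time of day, no member passed after adjustment, and 0% of all genes did so at ZT0 and at ZT12. At ZT0, 0 of 9 members had an unadjusted p under 0.05, against 9.23% of all genes. The lowest was that of Per1, with a log2 difference of -0.46 (Libramed minus vehicle; 95% interval -0.97 to 0.052; limma p = 0.0713, exact permutation p = 0.3). At ZT12, 1 of 9 did, against 6.74% of all genes: Per1, higher in Libramed mice by 0.54 (95% interval 0.029 to 1.05; limma p = 0.041, adjusted p = 0.729, exact permutation p = 0.2). Ciart and Per2 were next, at 0.54 (limma p = 0.058, exact permutation p = 0.2) and 0.37 (limma p = 0.0581, exact permutation p = 0.1). At ZT12 without the library that held muscle genes, 0 members passed and Per1 was at 0.50. The members' median was -0.19 at ZT0 and 0.24 at ZT12, beside -0.020 and -0.014 over all genes.

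Averaged over both times, 1 of 9 members had an unadjusted p under 0.05, where 10.5% of all genes did and 0% passed after adjustment. It was Clock, lower in Libramed mice by a log2 difference of -0.18 (95% interval -0.34 to -0.012; limma p = 0.0375, adjusted p = 0.460, exact permutation p = 0.045). The median over the members was 0.012, and over all genes -0.019, and with median-ratio scaling or quantile normalization Clock no longer passed. It also missed the threshold when Libramed ZT0 replicate 3, Libramed ZT12 replicate 1, or replicate 2 or 3 of either vehicle group was left out, and without the library that held muscle genes it passed with a difference of -0.19. The summed level of the hepatocyte genes, largely Apoa1, was 35872 to 41008 FPKM in vehicle and 40417 to 50081 FPKM in Libramed libraries, and its part in the difference was not tested.

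In most members the mice of the vehicle ZT0 group were less alike than those of the Libramed ZT0 group, in opposite directions for the activators and for Per3 and Ciart. Replicate 3 had the highest Arntl, Npas2 and Cry1 of its group and the lowest Per3, Ciart and Cry2. Replicate 1 had the lowest Arntl, Clock, Npas2, Per1, Per2, Cry1 and Csnk1d and the highest Per3 and Ciart. The highest and lowest vehicle ZT0 values of Ciart differed 11.8-fold, against 1.56-fold at Libramed ZT0. For Npas2 the factors were 4.27 and 1.40, for Per3 3.79 and 1.25, and for Arntl 2.02 and 1.17.

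The SD of log2(FPKM + 1) was larger at vehicle ZT0 than at Libramed ZT0 in 8 of the 10 members and in 59.5% of all genes tested. The exceptions were Per1 and Cry1, whose highest and lowest values differed 2.14-fold and 1.82-fold at Libramed ZT0 and 1.59-fold and 1.62-fold at vehicle ZT0. Its median over the members was 0.34 at vehicle ZT0 and 0.10 at Libramed ZT0, while over all genes it was 0.14 and 0.12. At ZT12 it was larger in vehicle mice in 7 of 10 members, against 43.5% of genes, with medians of 0.28 and 0.14 over the members. The 10 members include Npas2, which was under the minimum and is not among the genes tested. With 3 mice a group these spreads are a description and were not tested. Outside the core loop, 2 genes chosen after their values were seen spread likewise: Dbp, the PAR-bZIP output factor, was at 17.9, 6.97 and 1.84 FPKM in vehicle ZT0 replicates 1, 2 and 3, and Nr1d1, which encodes REV-ERBα, was at 56.7, 33.7 and 21.4 FPKM. In Libramed ZT0 mice Dbp was at 20.3, 18.2 and 27.2 FPKM and Nr1d1 at 41.2, 43.2 and 57.8 FPKM. This did not hold for every other clock gene: the SD of log2(FPKM + 1) of Bhlhe40 was 0.29 at vehicle ZT0 and 0.30 at Libramed ZT0.

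**Figure D4:**
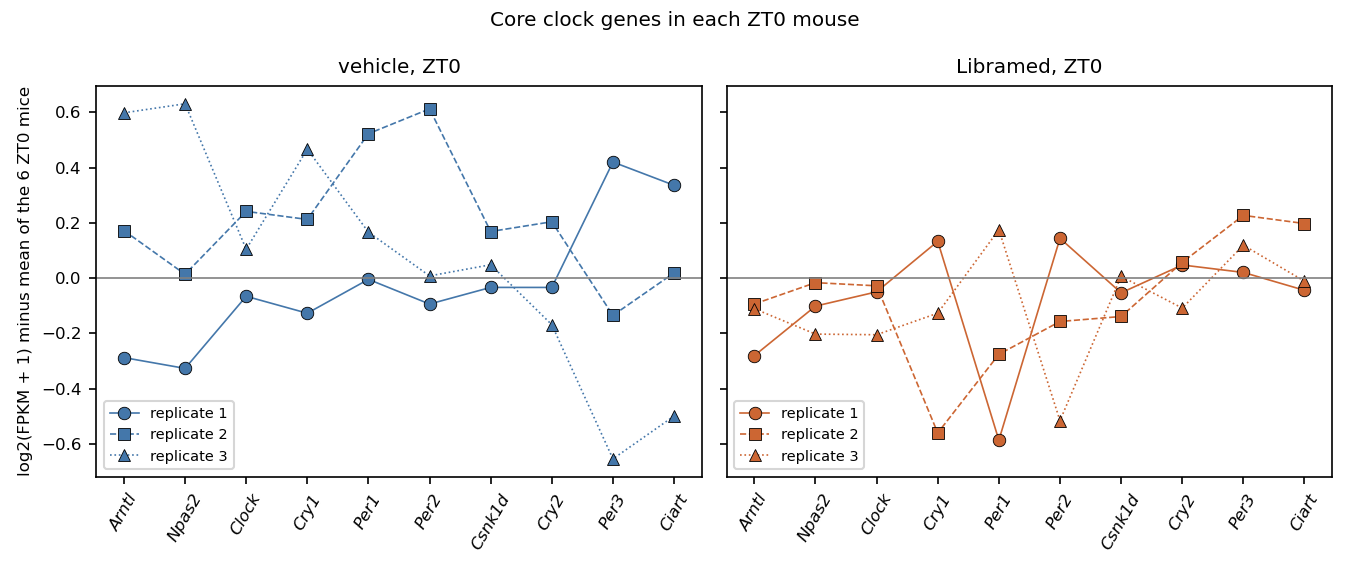
Core clock genes in each ZT0 mouse, as log2(FPKM + 1) minus the mean of the 6 ZT0 mice (left, vehicle; right, Libramed; circles, squares and triangles are replicates 1, 2 and 3, and lines join the genes of 1 mouse). In the vehicle panel replicates 1 and 3 cross between Arntl and Npas2 on the left and Per3 and Ciart on the right, while the 3 Libramed mice lie close together at both ends.

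Counts changed when single libraries were left out. Without vehicle ZT0 replicate 3, 3 members in place of 6 passed the test over time in vehicle mice, with Clock, Per1 and Per2 lost, and 279 of all genes in place of 1020 did so. Without vehicle ZT12 replicate 1 or 2, 4 members passed, and without vehicle ZT0 replicate 1 all 6 did. Between treatments at ZT0, 4 members (Arntl, Clock, Cry1 and Per3) had an unadjusted p under 0.05 without vehicle ZT0 replicate 1, where 0 had it with all 6 mice, and 1188 of all genes in place of 905 did. The part of the spread in these counts was not tested. Replicate numbers have no order, and nothing in the labels sets replicates 1 and 3 apart.

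Around these genes lie other parts of the clock, and 43 of them were listed: kinases, ubiquitin ligases, cofactors, and the loops through RRE elements and D-boxes. Of these, 42 were in the table and 38 were tested. From ZT0 to ZT12, 9 rose and 2 fell in vehicle mice, and 9 rose and 3 fell in Libramed mice, beside the 5.62% and 4.78%, and 7% and 5.36%, of all genes given above. Their medians were 0.098 and 0.033, and those of all genes 0.0078 and 0.013. There were 11 genes that passed in both treatments, and 9 of them follow, as log2 changes in vehicle and then in Libramed mice. The comparisons share no mice, since each treatment had its own ZT0 and ZT12 groups.

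In the RRE loop, Nr1d1, whose protein represses through these elements, fell by 1.97 and 2.73. Arntl, which held an RRE core, fell together with Nr1d1. Among the factors of the D-box, Dbp rose by 3.05 and 1.44, Tef by 1.39 and 1.19 and Hlf by 0.78 and 0.76, and Nfil3, which represses through the same element, fell by 1.18 and 1.09. Per3, which held 2 D-boxes, rose with the first 3. Clock and Npas2, whose windows held none of the motifs, fell too, and Per1 and Ciart, which held no D-box, rose too. A link through these elements was not tested.

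Other regulators rose as well. Usp2, a deubiquitinase that acts on clock proteins, rose by 3.39 and 3.85, more than any member. Nampt, the rate-limiting enzyme of NAD salvage, rose by 1.64 and 1.35. Bhlhe40, an E-box repressor, rose by 0.83 and 1.61, and Cipc, a partner of CLOCK that inhibits it, by 0.64 and 1.06.

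The genes whose level ran most closely with each member were looked up over the 12 libraries, as Pearson's r of log2(FPKM + 1), without other members. The points share libraries, depth and the 2 times of day, so r describes this set of samples and has no p. Arntl ran with Clpx (0.977), a mitochondrial chaperone of a protease, with Ypel2 (0.975) and with Dnajb2 (0.970). The level of Clpx was 74.9 and 61.5 FPKM at ZT0 and 24.7 and 24.6 FPKM at ZT12 in vehicle and Libramed mice. Clock ran with Caprin1 (0.985), an RNA-binding protein, with Mtmr4 (0.965) and with Fam210b (0.964).

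Among the repressors, Per1 ran with 1810011O10Rik (0.981), whose mean was 13.2 and 46.5 FPKM at vehicle ZT0 and ZT12 and 11.2 and 76.0 FPKM at Libramed ZT0 and ZT12. Mknk2, a kinase of the translation factor eIF4E (0.970), and Trim7 (0.963) followed. Per2 ran with Trak1 (0.982), Cdk18 (0.979) and Slc37a4 (0.978), the glucose 6-phosphate transporter, whose mean was 96.6 and 165 FPKM in vehicle and 84.7 and 201 FPKM in Libramed mice. Per3 ran with Angel2 (0.987), Tef (0.976) and Wee1 (0.971), a cell cycle kinase. Ciart ran with Upp2 (0.979), a uridine phosphorylase, with Usp2 (0.978) and with Lpin1 (0.975), a phosphatidate phosphatase.

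For the CRY genes and Csnk1d the best matches were lower than for the other members. Cry1 ran with Dhps (0.891), Nudt8 (0.890) and Ddb1 (0.887), the last a part of ubiquitin ligases. Cry2 ran with Snrk (0.917), Qsox2 (0.915) and C2cd4d (0.903). Csnk1d ran with Ccdc137 (0.922), Zfp106 (0.890) and Prkrip1 (0.865).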

How the data were processed

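Liver RNA-seq of 12 mice was used, 3 in each of 4 groups taken from the labels. Single-end reads were aligned by the authors to the mm10 genome and known splice junctions, reads without a unique best match were dropped, and the authors deposited 1 table of FPKM per gene and sample (RPKM in the methods); the submitters' notes also name TopHat and Cuffnorm. No counts were used, and depth in reads is unknown. Where a symbol stood on several lines (289 repeats), only its line of highest mean level was used.

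The 9806 genes averaging 1 FPKM or more were tested with limma 3.58.1 in R 4.3.3 (trend on) on log2(FPKM + 1), two-sided, with Benjamini-Hochberg adjustment over all of them: 6 mice in comparisons of 2 groups, 12 for the difference in change and for averages over treatments or times. Two-sided exact permutation tests were computed in Python 3.11.15 over all arrangements. For averages over treatments, times were permuted within treatment. For averages over times and the difference in change, treatments were permuted within time. All 10 members were named; other clock genes were named if they passed over time in both treatments (at most 10 by mean change), with the 3 genes of highest correlation per member. A gene that this rule names is not reported here. The members and lists were chosen with earlier results of these data known. Scripts were tested on simulated data. Alternatives were a pseudocount of 0.1, no minimum, a minimum of 5 FPKM, no trend, median-ratio scaling, quantile normalization, all 12 samples, a replicate block, Cyber-T (101 genes, weight 10) and leaving out each library. Promoters came from RefSeq (GRCm38.p6) and gene positions from GENCODE on the same build.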

Additional observations from a re-analysis of the deposited data

Results flagged for a closer look

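The change from ZT0 to ZT12 differed between treatments in 2 members, by the test of the difference itself at an unadjusted p. Per1 rose more in Libramed than in vehicle mice by 0.9985 on the log2(FPKM + 1) scale, and Per2 by 0.7266. Neither passed after adjustment over all genes (limma adjusted p = 0.625 and 0.725). At the unadjusted threshold 6.63% of all genes passed too. The exact permutation p was 0.04 for Per1 and 0.065 for Per2. The limma p of Per1 stayed under 0.05 in 19 of 19 alternatives. That of Per2 did so in 13 of 19, and not without the library that held muscle genes. In Per1 the 3 Libramed mice at ZT12 (15.4 to 17.3 FPKM) overlapped with the vehicle mice (8.05 to 15.9 FPKM), while in Per2 they did not (16.9 to 22.0 against 11.1 to 16.7 FPKM). No cause was tested.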

How the results depend on the processing

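Over time, the log2 changes of the members kept their direction in all alternatives except that of Csnk1d in vehicle mice, which ran from -0.11 to 0.0011 when single libraries were left out. Members passing in vehicle mice were 2 without a minimum level (6 in the report) and 3 to 6 with a library left out; in Libramed mice 6 to 7 (8 in the report). Averaged over both treatments they were 6 to 8. Between treatments, members with an unadjusted p under 0.05 at ZT0 were 1 by Cyber-T (0 in the report) and 0 to 4 with a library left out. At ZT12 they were 0 without a minimum, 3 with median-ratio scaling and 2 in the fit of all 12 samples (1 in the report), and 0 to 2 with a library left out. Over both times they were 0 with a minimum of 5 FPKM, median-ratio scaling or quantile normalization (1 in the report) and 0 to 3 with a library left out, and for the difference in change 1 to 3 (2 in the report). The 1 member over both times was Clock, whose highest value was 3.97 FPKM, so the minimum of 5 FPKM left it untested. The cause of the other moves was not tested.

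Differences near 0 reversed. That of Cry2 at ZT0 was 0.024 with median-ratio scaling and 0.023 with quantile normalization. The difference in change was -0.0044 for Clock with a pseudocount of 0.1 and 0.018 for Per3 with quantile normalization. Over both times Per1 was at -0.014 and Per2 at -0.020 with a pseudocount of 0.1. With a library left out, ZT0 differences ran from -0.021 to 0.52 (Per3), -0.086 to 0.10 (Cry2) and -0.13 to 0.29 (Ciart), and ZT12 differences from -0.25 to 0.083 (Arntl) and -0.18 to 0.28 (Cry1). The difference in change ran from -0.053 to 0.10 (Clock) and -0.28 to 0.26 (Per3), and the difference over both times from -0.059 to 0.17 (Per1), -0.069 to 0.12 (Per2) and -0.024 to 0.032 (Csnk1d).

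The replicate block left 5 members in Libramed mice over time and gave 2 at ZT12 between treatments. Same-numbered samples did not deviate together (correlations -0.279 to 0.341), so the numbers were not taken as pairs.

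All genes passing over time in vehicle mice were 1020, and 515 without a minimum, 279 with the block, 1539 in the fit of 12, 459 by Cyber-T and 226 to 869 with a library left out (532, 226 and 277 if it was vehicle ZT12 replicate 1, 2 or 3, and 279 if vehicle ZT0 replicate 3). In Libramed mice they were 1212, and 639, 709 (block), 621 (Cyber-T) and 535 to 1014, under 650 without any library but Libramed ZT12 replicate 1. Genes with an unadjusted p under 0.05 at ZT0 were 905, and 1392 without a minimum, 574 at 5 FPKM, 387 by Cyber-T and 525 without Libramed ZT0 replicate 3. At ZT12 they were 661, and 1139, 430 and 281, and for the difference in change 650, and 1050 and 422. With 3 mice a group and unknown read depth, a member that missed the threshold may still differ by an amount inside its interval. Power was not calculated.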

Other observations

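Libraries differed in how often they held the extreme value of their group. Vehicle ZT12 replicate 1 had the lowest value of its 3 mice in 7 of the 10 members (Arntl, Clock, Per2, Per3, Cry1, Cry2 and Csnk1d) and the highest in 1 (Ciart). Libramed ZT12 replicate 3, the library with muscle genes, had the highest value in 5 (Npas2, Per1, Per2, Ciart and Csnk1d) and the lowest in 0. Vehicle ZT0 replicate 2 and vehicle ZT12 replicate 3 also had the highest in 5 and the lowest in 0. Libramed ZT0 replicate 2 had the highest in 6, and vehicle ZT0 replicate 1 the lowest in 7. How often each library held the extreme over all genes was not counted, so these counts describe the members only.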
